A study of Mus musculus with 12 samples.

Results

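Chemokines are small secreted proteins that steer migrating cells, and their receptors are G protein-coupled receptors on the cells that respond. The genes described here are the chemokines and chemokine receptors of the mouse disc. They were taken as every probe set whose platform gene symbol starts with Ccl, Cxcl, Ccr or Cxcr and a number, or is Cx3cl1, Cx3cr1, Xcl1, Xcr1, Ackr1, Ackr2, Ackr3 or Ackr4. Of 19505 genes with a symbol on the array, 60 met this rule, through 61 probe sets. For Ccl21b, which had 2 probe sets, the one with the higher mean over the 12 arrays was kept. By role the genes fall into 13 CXC ligands, 23 CC ligands, 2 ligands of the CX3C and XC types, 18 signalling receptors and 4 atypical receptors.

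RNA had been hybridized to Clariom S arrays from the annulus fibrosus (AF), the fibrous outer ring of the intervertebral disc, and from the nucleus pulposus (NP), its gelatinous core. All mice were C57BL/6 and 12 months old, and the discs were lumbar. Each tissue had 3 arrays of wild-type (WT) mice and 3 of TonEBP +/- mice, which are haploinsufficient for TonEBP, the osmotic stress transcription factor encoded by Nfat5. A sample was the pooled disc tissue of a single mouse. The labels give no sex, litter or batch, and they do not tie an AF array to an NP array of the same mouse.

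Values are log2 signals, 1 per gene and array, so that a difference of 1 is a 2-fold change in signal. Background was set for each array at the 95th percentile of its 23 background probe sets, and a gene with a higher signal was counted as above it. That level was 7.73 to 7.98 on the AF arrays and 7.11 to 7.33 on the NP arrays. Array medians also differed by tissue (AF 7.43 to 7.64, NP 6.82 to 6.87). The interquartile range was 3.11 on array 3 of TonEBP +/- AF, apart from the other AF arrays (2.36 to 2.66). Nfat5 read 7.70, 8.69 and 9.93 log2 on the WT arrays of AF and 8.91, 8.94 and 8.74 on the heterozygous ones. The NP arrays read 9.12, 8.80 and 8.34 (WT) and 9.06, 9.62 and 9.09 (TonEBP +/-), so neither tissue showed a lower signal (limma adjusted p = 0.923 and 1). Whether its probes lie in the altered part of the gene is not known here. Of the markers of the tissues, 9 measured NP genes averaged 12.9 to 13.0 in NP and 8.52 to 10.3 in AF, with Foxa1 and Foxa2 above background on no array. The 9 measured AF genes averaged 10.7 to 11.9 on AF arrays and 7.74 to 8.41 on NP arrays. The tendon-type regulators Mkx and Scx and the marker Tnmd were above background on no array.

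Chemokines bind glycosaminoglycans in the matrix and form gradients, and a cell carrying the matching receptor moves up them through Gi proteins, PI3 kinase and Rac. Inflammatory chemokines such as Ccl2 and Cxcl2 are induced by NF-kB and recruit monocytes and neutrophils, whereas homeostatic ones such as Cxcl12, Ccl19 and Ccl21 hold leukocytes and progenitors in place in marrow and lymphoid tissue. Atypical receptors bind chemokines without Gi signalling and remove them. The disc has few blood vessels, and its NP in health holds few leukocytes.

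The promoters of Cxcl12, Cxcr4, Ccl9 and Ccl19 are shown first, because the ligand and receptor of the Cxcl12 pair and the CC ligands Ccl9 and Ccl19 are the genes whose signals in AF the genotype comparison turns on. Each is the stretch of 250 bases before the RefSeq gene start on the GRCm38.p6 assembly, written in the direction of transcription. Capitals mark matches on either strand to TGGAAA (the core of the tonicity-responsive element that TonEBP binds), to TATAAA and to GGGCGG (a GC box). Overlapping matches run together.
Cxcl12, chr6:117168285-117168534, plus strand: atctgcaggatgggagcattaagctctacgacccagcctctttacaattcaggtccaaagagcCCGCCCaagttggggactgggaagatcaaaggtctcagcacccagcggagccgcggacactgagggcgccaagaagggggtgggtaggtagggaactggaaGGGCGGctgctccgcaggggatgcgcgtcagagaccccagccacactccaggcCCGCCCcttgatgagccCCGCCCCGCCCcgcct
Cxcr4, chr1:128592300-128592549, minus strand: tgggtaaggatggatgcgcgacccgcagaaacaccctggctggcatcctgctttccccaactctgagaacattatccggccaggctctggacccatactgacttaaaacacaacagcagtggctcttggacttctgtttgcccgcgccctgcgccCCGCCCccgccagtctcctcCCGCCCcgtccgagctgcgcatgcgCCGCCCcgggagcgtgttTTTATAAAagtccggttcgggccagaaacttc
Ccl9, chr11:83578637-83578886, minus strand: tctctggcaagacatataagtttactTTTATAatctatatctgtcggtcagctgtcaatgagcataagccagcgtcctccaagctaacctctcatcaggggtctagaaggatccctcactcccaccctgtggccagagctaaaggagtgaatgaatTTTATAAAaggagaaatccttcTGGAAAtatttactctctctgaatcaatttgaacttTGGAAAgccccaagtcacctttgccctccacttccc
Ccl19, chr4:42756366-42756615, minus strand: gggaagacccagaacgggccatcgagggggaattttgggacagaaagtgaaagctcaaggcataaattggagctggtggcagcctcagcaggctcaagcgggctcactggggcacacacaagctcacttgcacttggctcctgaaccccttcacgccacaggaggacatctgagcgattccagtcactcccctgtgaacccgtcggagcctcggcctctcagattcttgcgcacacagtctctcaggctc
The Cxcl12 stretch holds 5 GC boxes and no TGGAAA, and that of Cxcr4 holds 3 GC boxes and a TATA motif read on both strands 32 to 25 bases before the start. In Ccl9, TGGAAA occurs 72 to 67 and 36 to 31 bases before the start, and in Ccl19 none of these motifs occurs. Promoters were at hand for 45 of the 60 genes, 49 promoters in all. TGGAAA was found in 14 of the 49 (28.6%), against 18.6% of all 32851 mouse promoters of that length in the table. TATAAA was in 14 (28.6%, against 12.4% of all), GGGCGG in 8 (16.3%, against 32.7%) and the NF-kB consensus motif, which can overlap TGGAAA, in 11 (22.4%, against 7.25%). These are matches of letters in a window, not binding sites. Members lying side by side on a chromosome and alike in sequence are not independent of each other in such counts.

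At the background level set here, the share of these genes above it was near that of all clusters. The count depended on that level. Of the 60, 28 were above it on all 3 arrays of at least 1 group, against 51.8% of all clusters on the array, 23 were above it on no array and 9 lay between. The 5 genes above background on all 12 arrays were the ligands Cxcl12, Ccl21a, Ccl25 and Ccl6 and the receptor Ccr7. By group, 24 genes were above on all 3 arrays in AF of WT, where 39.0% of all clusters were, and 20 in AF of TonEBP +/- (36.1% of clusters). Only 8 were in NP of WT (41.6% of clusters) and 8 in NP of TonEBP +/- (42.0%). The tissues thus differed in how many chemokine genes were measurable, while the share of all clusters above background was similar.

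The genes above background on no array included whole ligand and receptor pairs. Fractalkine (Cx3cl1) and its receptor Cx3cr1, and Xcl1 and Xcr1, stayed at background, and so did the interferon-induced ligands Cxcl10 and Cxcl11. The neutrophil attractants Cxcl1 and Cxcl5, the monocyte attractants Ccl8 and Ccl12, and Cxcl15, Cxcl17, Ccl1, Ccl22 and Ccl24 were there too. On the receptor side these were Ccr4, Ccr6, Ccr8, Ccr9, Ccr10, Ccr1l1 and Cxcr6, and the atypical receptor Ackr1, which reached 7.86 on 1 AF array. Being at background does not show that a transcript is absent, since the background level set here is strict.

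The 9 genes in between were each above background on 1 to 4 arrays. The eosinophil attractant Ccl11 passed on 4 arrays, as did the monocyte attractant Ccl7. Cxcr1, a neutrophil receptor for CXC ligands, passed on 3 AF arrays with signals from 7.36 to 8.19 over the 6 of them. Ccl5, Ccl17 and Ccl26 passed on 2 arrays each, and Cxcl9, Cxcr5 and Ackr4 on 1 each.

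**Figure D1:**
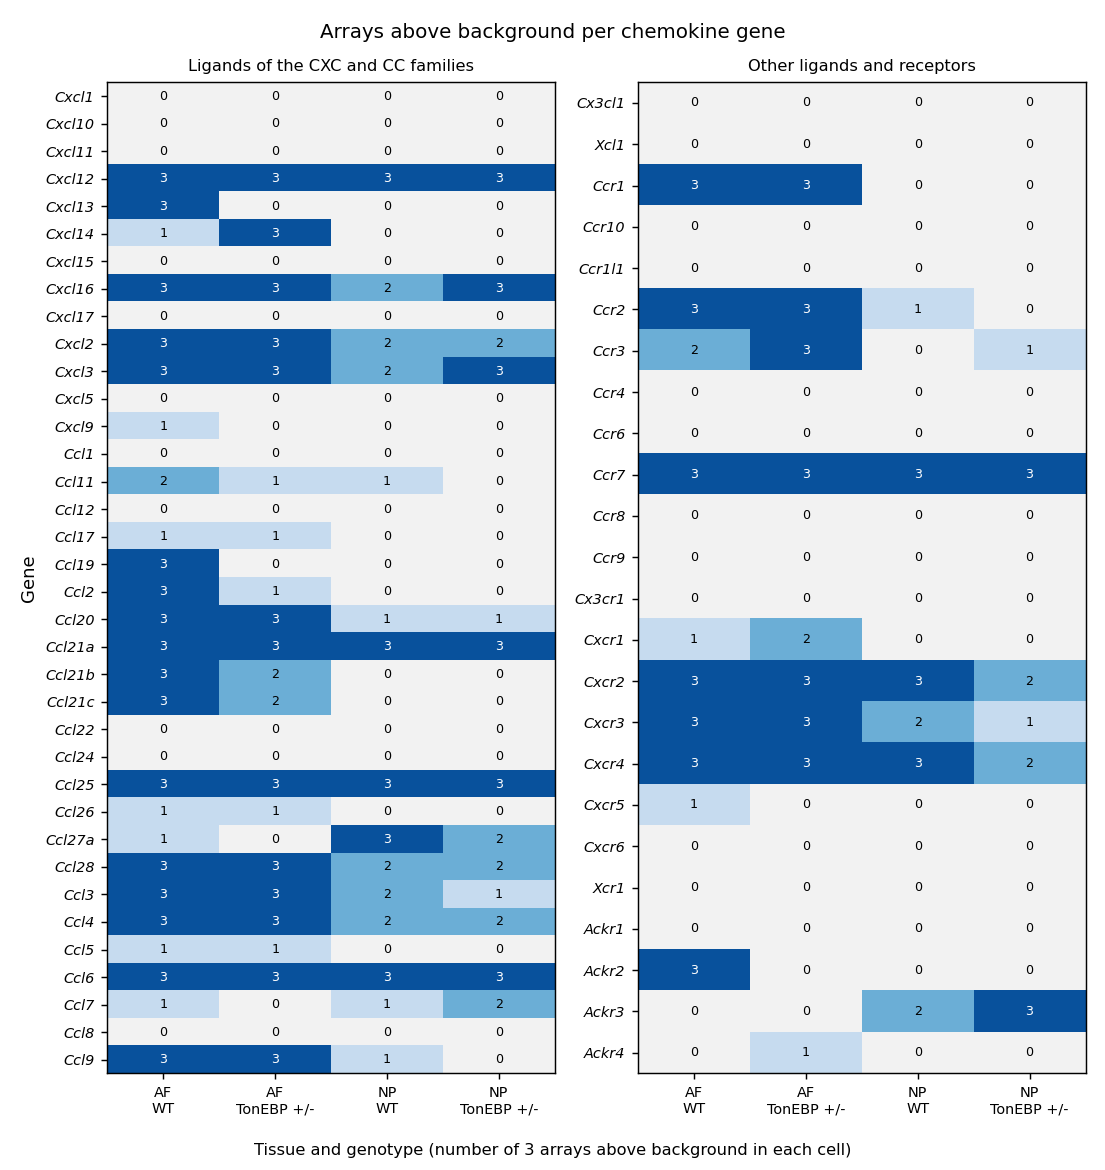
Number of the 3 arrays of each tissue and genotype (columns) on which each of the 60 chemokine and receptor genes (rows) exceeded the background level of its array, from 0 (pale) to 3 (dark). Cxcl12, Ccl21a, Ccl25, Ccl6 and Ccr7 are dark in all 4 columns, and 24, 20, 8 and 8 genes are dark in the columns from left to right.

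TonEBP haploinsufficiency was compared with WT in AF first. With 1 copy of the factor lost, Cxcl12, its receptor Cxcr4, the myeloid cell attractant Ccl9 and the homeostatic ligand Cxcl14 rose in AF. The lymphoid ligand Ccl19 and the scavenging receptor Ackr2 fell. These 6 of 60 genes (10.0%) passed limma's test at an adjusted p under 0.05, 4 higher and 2 lower, where 6.07% of all clusters were called (2.76% higher and 3.31% lower). After quantile normalization 5 were higher and 5 lower, where 8.93% of all clusters were called. The share among chemokine genes is read against that background, and the medians were close as well (-0.08 log2 over the 60 genes, -0.04 over all clusters). At an unadjusted p under 0.05 there were 18 chemokine genes and 5158 clusters. With AF array 3 of TonEBP +/- or AF array 2 of WT left out, 2 genes were called, Cxcl12 and Ccl19 each time (0.365% and 0.869% of all clusters). Without AF array 1 of WT 3 genes were called (2.09% of clusters), and without AF array 2 of TonEBP +/- 16 were (18.1% of clusters). No gene was called, and 3 clusters in all, when the 6 AF arrays were fitted alone, where 12 of the 60 genes and 3814 clusters had an unadjusted p under 0.05.

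Cxcl12, a CXC ligand made by marrow stroma and mesenchymal cells that retains blood stem cells and neutrophils, had a log2 signal of 14.90, 12.74 and 14.14 in AF of WT. The heterozygous AF arrays read 16.08, 16.66 and 18.24. The groups did not overlap. The rise was 3.07 log2 (SE 0.511, 95% CI 1.98 to 4.15), 8.38-fold, with a limma adjusted p of 0.0111 (n = 3 per genotype). It passed in each of the 12 fits that left out 1 array, with a change of 2.44 to 3.56, and without AF array 3 of TonEBP +/- it was 2.44 (adjusted p = 0.0364). Fitted on the AF arrays alone its adjusted p was 0.102.

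Cxcr4, the receptor through which Cxcl12 signals, read 10.99, 10.67 and 10.97 in AF of WT and 12.48, 11.84 and 12.70 in AF of TonEBP +/-. All 3 heterozygous arrays lay above all WT arrays. The rise was 1.46 log2 (SE 0.271, 95% CI 0.89 to 2.04), 2.76-fold (limma adjusted p = 0.0143). It missed the threshold without AF array 3 of TonEBP +/- (1.28 log2, adjusted p = 0.0620) and without AF array 2 of WT (1.36, adjusted p = 0.0526). Ackr3, the atypical receptor that removes Cxcl12, was above background on no AF array, so no genotype change is given for it there.

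Among CC ligands, Ccl9 binds Ccr1 and attracts monocytes and osteoclast precursors. Its signal was 9.72, 9.06 and 10.59 in AF of WT and 11.04, 10.78 and 12.46 in AF of TonEBP +/-, with no overlap. The rise of 1.64 log2 (SE 0.42, 3.12-fold, limma adjusted p = 0.034) passed in 8 of the 12 fits that left out an array. Without AF array 3 of TonEBP +/- it was 1.12 (adjusted p = 0.157), and without AF array 2 of WT it was 1.28 (adjusted p = 0.141). It also missed the threshold without AF array 1 of WT (adjusted p = 0.0865) or of TonEBP +/- (0.0606).

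Cxcl14, a ligand of epithelia and stroma, was at 7.98, 7.76 and 7.25 in AF of WT, above background on 1 array only, and at 8.36, 8.46 and 8.99 in AF of TonEBP +/-, above on all 3. The rise was 0.94 log2 (SE 0.25, 95% CI 0.41 to 1.47, limma adjusted p = 0.0388). The call was lost in 10 of the 12 fits that left out 1 array (0.73 to 1.10 log2), all but those without AF array 2 of TonEBP +/- or NP array 3 of WT.

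Both genes that fell were above background in AF of WT and on no array in AF of TonEBP +/-. Ccl19, which guides T cells and dendritic cells through Ccr7, was at 8.66, 8.47 and 7.91 in AF of WT and at 7.05, 6.78 and 6.99 in AF of TonEBP +/-. The genotypes did not overlap. Against the background level the fall was at least 0.43 log2, the fitted change being -1.40 (SE 0.255, limma adjusted p = 0.0138), and it passed in all 12 fits that left out 1 array. Ackr2, which takes up and degrades inflammatory CC chemokines, read 8.35, 8.33 and 8.07 against 7.15, 7.26 and 6.33. It fell by at least 0.34 log2 against background (fitted change -1.34, SE 0.293, limma adjusted p = 0.022). Without AF array 3 of TonEBP +/- the fitted change was -1.05 (adjusted p = 0.0971), and the call was also lost without AF array 1 (0.0590) or 2 (0.0666) of WT.

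**Figure D2:**
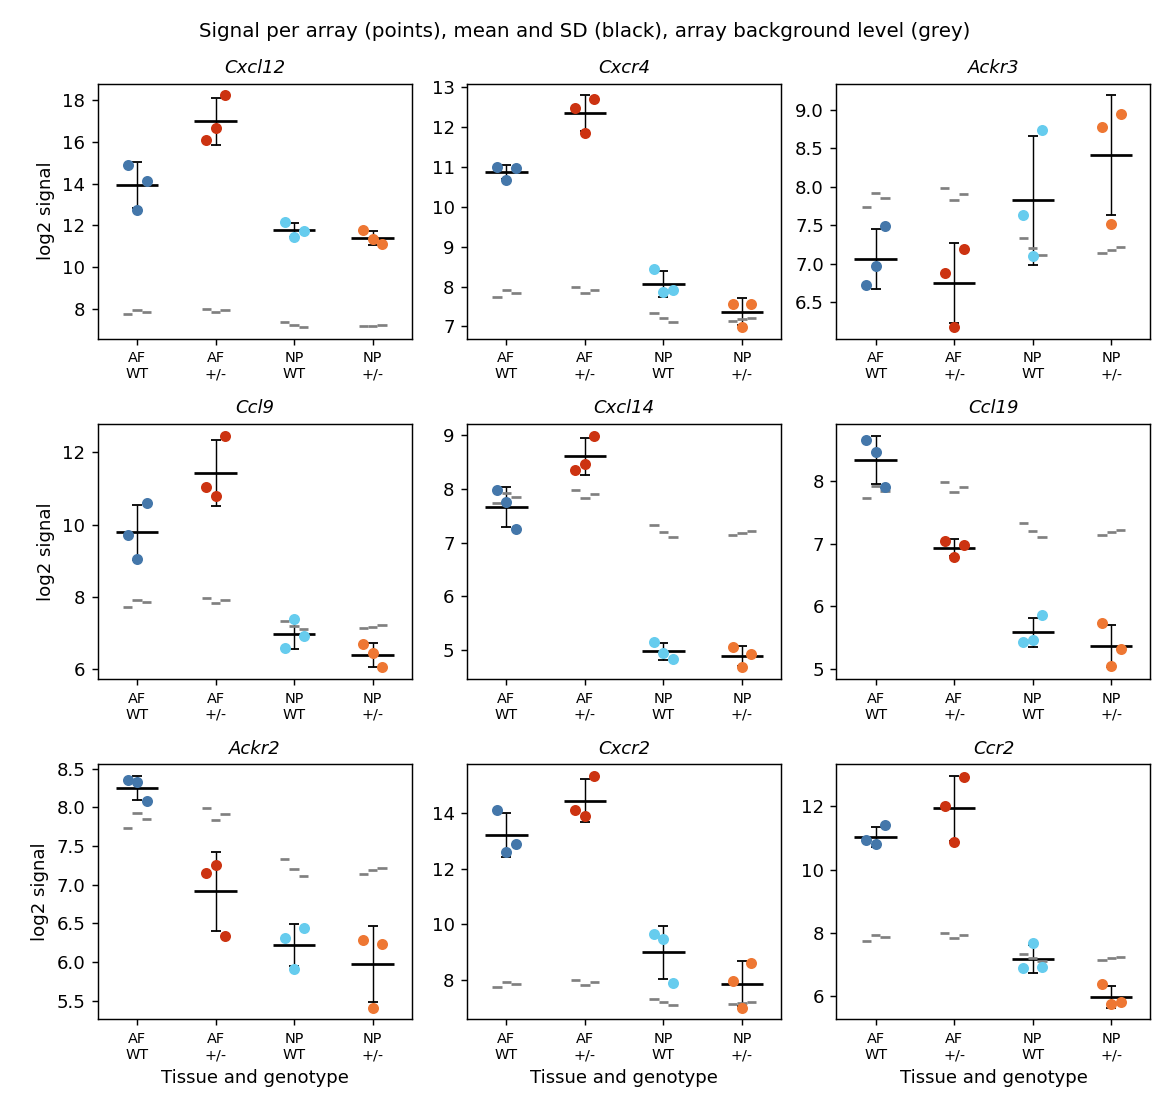
Log2 signal of 9 chemokine and receptor genes on every array (points), by tissue and genotype, with the mean and SD of each group (black) and the background level of each array (grey dashes). In AF the TonEBP +/- points of Cxcl12, Cxcr4, Ccl9 and Cxcl14 lie above those of WT and the points of Ccl19 and Ackr2 below, and in NP the points of Ccr2 and Cxcr4 lie lower in TonEBP +/-.

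Other lymphoid chemokine genes had lower mean signals in AF of TonEBP +/- without passing. Ccr7, the shared receptor of Ccl19 and Ccl21, was at 10.91, 10.69 and 10.33 in AF of WT and 10.06, 10.43 and 9.16 in TonEBP +/-, a difference of -0.76 log2 (limma adjusted p = 0.12). Ccl21b and Ccl21c are near-identical paralogs, and their probe sets hold the same values (8.71, 8.63 and 8.55 against 8.13, 8.26 and 7.17, limma adjusted p = 0.0913). They are in effect 1 measurement, but the counts of genes given here include both. Ccl21a, whose sequence is nearly the same, differed by -0.39 (adjusted p = 0.414). The B cell attractant Cxcl13 was above background in AF of WT (8.26, 8.18 and 8.20) and on no array in TonEBP +/- (7.47, 7.77 and 7.24), again without passing (adjusted p = 0.0826).

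The receptors of myeloid cells had higher mean signals in AF of TonEBP +/- and did not pass. Cxcr2, the neutrophil receptor for Cxcl1, Cxcl2, Cxcl3 and Cxcl5, was at 14.12, 12.61 and 12.91 in WT and 14.13, 13.90 and 15.34 in TonEBP +/- (1.24 log2, SE 0.521, limma adjusted p = 0.164). Ccr2, the receptor for Ccl2 on inflammatory monocytes, was at 10.92, 10.81 and 11.41 against 12.00, 10.89 and 12.94 (0.90, adjusted p = 0.189). Ccr1, which binds Ccl3, Ccl5, Ccl6 and Ccl9, was at 10.21, 8.67 and 8.66 against 10.34, 8.91 and 11.46 (1.06, adjusted p = 0.225). In each of the 3 the genotypes overlapped, with array 3 of TonEBP +/- the highest AF array. The eosinophil receptor Ccr3 did not overlap between genotypes (8.00, 7.32 and 7.89 against 8.64, 8.15 and 9.33), and its difference of 0.97 missed the threshold (adjusted p = 0.0906).

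The inflammatory ligands were not called in AF. Cxcl2, the neutrophil attractant induced by interleukin 1 and TNF, varied more between the arrays of a genotype than between genotypes. Its WT arrays read 15.32, 9.13 and 12.98 log2 and the heterozygous arrays 15.15, 11.20 and 13.00, a difference of 0.64 (SE 1.35, 95% CI -2.21 to 3.49, limma adjusted p = 0.818). Ccl3, Ccl4 and Ccl6, whose genes lie beside that of Ccl9 on chromosome 11, differed by 0.45, -0.33 and 0.66, none of which passed (adjusted p = 0.653, 0.493 and 0.416). The monocyte attractant Ccl2 was above background on 3 WT arrays and on 1 of TonEBP +/- (difference -0.52, adjusted p = 0.273). Cxcl3, Cxcl16, Ccl20, Ccl25 and Ccl28 differed by -0.27 to 0.38 and Cxcr3 by 0.07, with none called.

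Counting groups that did not overlap gave 6 genes higher and 7 lower in TonEBP +/- AF, where 22.3% of all clusters did not overlap (10.0% higher and 12.3% lower). Besides the genes above, these were Ccl7 (lower), and Ccr10 (lower) and Ccr1l1 (higher), both of the last at background throughout.

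Markers of several cell types, though not all, differed between genotypes in AF, where 2.76% of all clusters were called higher and 3.31% lower. The 9 AF markers averaged 10.7 to 11.2 in WT and 11.4 to 11.9 in TonEBP +/-, with 3 called higher and 1 lower. The 9 NP markers averaged 8.96 to 10.3 and 8.52 to 8.94 in AF, with 1 called lower as deposited. The 9 measured markers of neutrophils and their precursors averaged 15.9 to 16.4 in WT AF and 16.9 to 17.6 in heterozygous AF, and Prtn3, Ctsg and Camp were called higher. The 9 markers of marrow stroma and osteoblasts averaged 8.92 to 9.61 and 10.1 to 10.9, with Bglap, Ibsp and Alpl called higher. The 9 macrophage markers averaged 8.02 to 8.45 and 8.47 to 9.44 (Csf1r called, Cd163 and C1qc above background on no array), and the 6 endothelial markers 7.65 to 8.29 and 8.18 to 9.16 (Kdr called, Tek on no array). The 7 markers of T and NK cells averaged 7.63 to 7.98 and 7.77 to 8.27 (Nkg7 called, Cd3g and Cd8a on no array), and the 5 of B and plasma cells 8.73 to 9.16 and 9.10 to 9.71 (Jchain called, Ms4a1 on no array). The 4 erythroid markers averaged 12.4 and 11.8 to 12.6, with Klf1 above background on no array and none called. The 6 muscle markers averaged 7.33 to 7.43 and 6.75 to 7.44, with Myh4 and Tnnt3 above background on no array and none called. The part of these markers in the chemokine values was not tested. In tissue samples such as these, fewer cells of a type and less RNA per cell cannot be told apart.

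**Figure D3:**
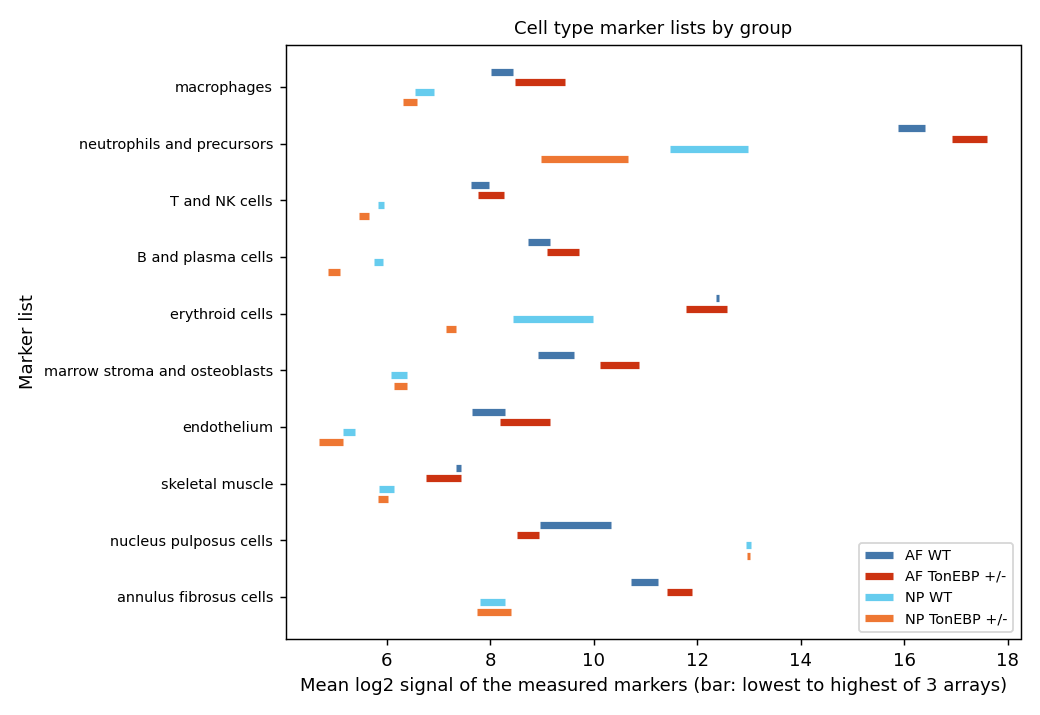
Mean log2 signal over the measured markers of 10 cell types, with a bar from the lowest to the highest of the 3 arrays of each tissue and genotype. Neutrophil markers span 15.9 to 16.4 (WT) and 16.9 to 17.6 (TonEBP +/-) among AF arrays, and 11.5 to 13.0 (WT) and 8.99 to 10.7 (TonEBP +/-) among NP arrays.

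In NP, no chemokine or receptor gene was called between genotypes, where 0.113% of all clusters (25) were. At an unadjusted p under 0.05 there were 3 genes, Ccr2, Cxcr2 and Cxcr4, all lower in TonEBP +/-, and 827 clusters. Every other fit tried, 6 with other settings and 12 that left out an array, also called none of the genes in NP. The median difference was -0.09 log2 over the 60 genes and 0.01 over all clusters. Groups did not overlap for 1 gene higher and 7 lower, where 11.3% of all clusters did not overlap (5.34% higher and 5.93% lower).

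Ccr2 was at 6.89, 7.66 and 6.90 in NP of WT, above background on 1 array, and at 6.36, 5.72 and 5.80 in TonEBP +/-, above on none. No size is given for a difference from unmeasured signals (limma adjusted p = 0.796). Cxcr2 read 9.64, 9.46 and 7.90 in WT and 7.97, 7.00 and 8.61 in TonEBP +/- (-1.14, 95% CI -2.24 to -0.03, limma adjusted p = 1). Its genotypes overlapped, while those of Cxcr4 did not. Cxcr4 was at 8.44, 7.87 and 7.90 in NP of WT and 7.57, 6.99 and 7.55 in TonEBP +/-, a difference of -0.70 (95% CI -1.28 to -0.13, limma adjusted p = 1).

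No ligand passed between genotypes in NP. Cxcl12 was at 12.14, 11.45 and 11.74 in WT and 11.77, 11.32 and 11.11 in TonEBP +/- (-0.37, 95% CI -1.46 to 0.71, limma adjusted p = 1), on overlapping arrays. Ccl6, a Ccr1 ligand, did not overlap (9.53, 8.42 and 8.12 against 7.81, 7.51 and 7.95) and had an unadjusted p of 0.0602. Ackr3 was above background on 2 of 3 WT arrays (7.63, 7.10 and 8.74) and on all 3 of TonEBP +/- (8.77, 7.52 and 8.94), and its difference of 0.59 had an interval from -0.31 to 1.49. Neutrophil markers moved beside these values in NP. They averaged 11.5 to 13.0 in WT and 8.99 to 10.7 in TonEBP +/-, with Mpo, Elane and Ctsg called lower, and the erythroid markers averaged 8.44 to 9.98 and 7.15 to 7.33, with Slc4a1 called lower. Their part in the receptor values was not tested.

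**Figure D4:**
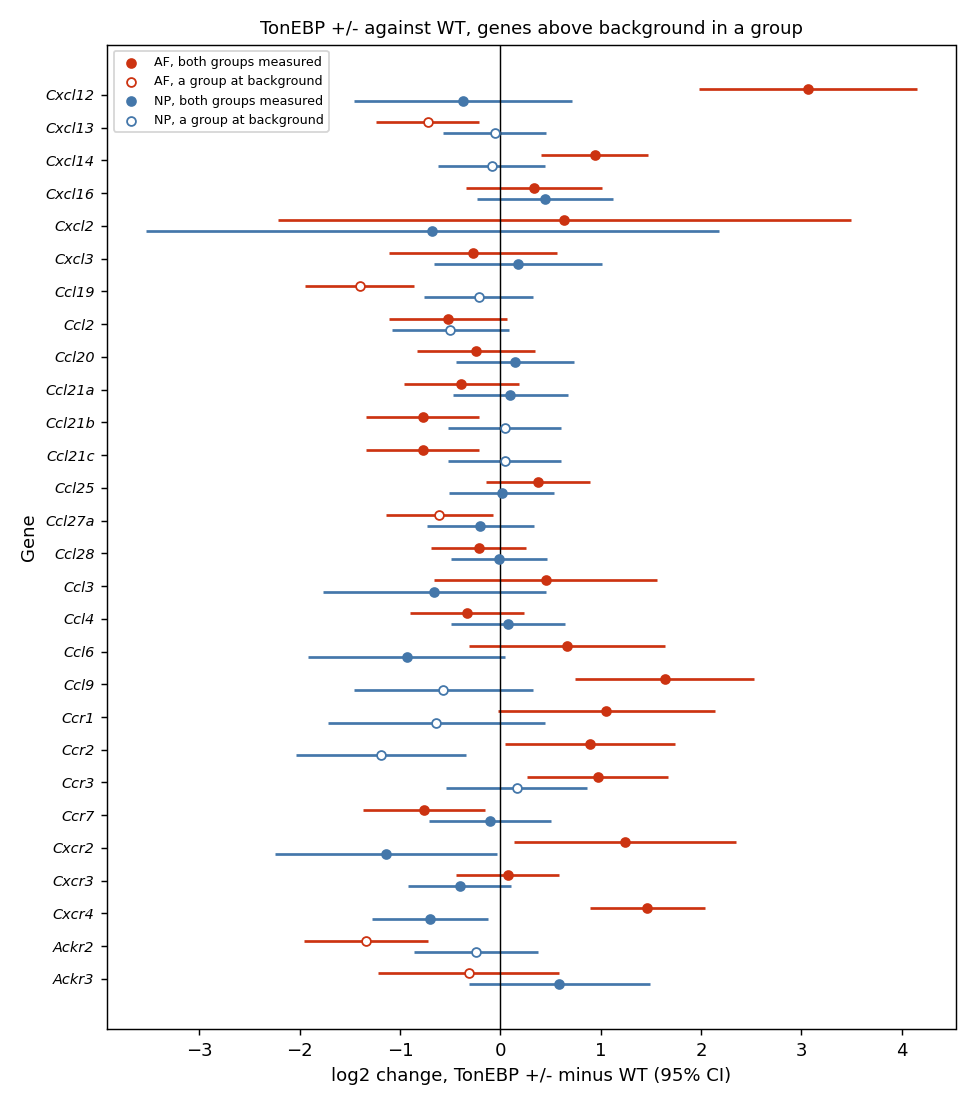
Log2 change of TonEBP +/- against WT with its 95% interval for the 28 genes above background on all 3 arrays of a group, in AF (red) and NP (blue), with open points where at least 1 of the groups compared had no array above background. In AF the intervals of the called genes Cxcl12, Cxcr4, Ccl9 and Cxcl14 lie above 0 and those of Ccl19 and Ackr2 below. Before adjustment the AF intervals of Cxcr2, Ccr2 and Ccr3, which were not called, also lie above 0. Those of Ccr7, Cxcl13, Ccl21b, Ccl21c and Ccl27a, not called either, lie below 0. In NP the intervals of Ccr2, Cxcr2 and Cxcr4 lie below 0 before adjustment, and none was called.

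Whether the genotype effect differed between the tissues was tested as the difference of both differences. Cxcl12 and Cxcr4 passed, both with a lower change in NP than in AF, and they were 2 of 60 genes where 0.887% of all clusters were called (0.766% lower). For Cxcl12 the difference was -3.44 log2 (SE 0.723, limma adjusted p = 0.0372), made of a change of 3.07 in AF and -0.37 in NP. For Cxcr4 it was -2.17 (SE 0.383, limma adjusted p = 0.018), from 1.46 and -0.70. The call of Cxcl12 held in 4 of the 12 fits that left out 1 array, with adjusted p up to 0.104, and that of Cxcr4 in 8, with adjusted p up to 0.0673. Neither gene was called without AF array 2 of WT, NP array 1 or 2 of WT or NP array 2 of TonEBP +/-, and 5 genes were called without AF array 2 of TonEBP +/-, where 5.94% of all clusters were. Cxcr2 did not pass (-2.38, adjusted p = 0.142). Nor did Ccl9 (0.098), Ccr2 (0.0992) and Cxcl14 (0.184), for which no size is given because no NP array of TonEBP +/- was above background. At an unadjusted p under 0.05 there were 12 genes and 3119 clusters. Neutrophil markers differed in the same way between the tissues, 6 of the 9 being called lower in this test.

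More of these genes were called between the tissues than between the genotypes. As deposited, 57 of 60 genes were called lower in NP than in AF of WT and none higher, where 78.3% of all clusters were called (56.1% lower and 22.2% higher). In TonEBP +/- mice, 54 were called lower and 1 higher, where 74.3% of clusters were called (54.4% lower and 20.0% higher). This direction depends in part on the scale of the arrays. All clusters together had a median change of -0.84 log2 in WT and -0.75 in TonEBP +/-, and the background probe sets changed by a median of -0.64 and -0.75. With array medians subtracted, 41 genes were lower and 2 higher in WT, where 65.0% of clusters were called (31.3% lower and 33.7% higher). The 2 higher were Ackr3 and Ccr1l1, the latter at background. In TonEBP +/- 41 were lower and 2 higher, Ackr3 and Ccl27a, where 56.2% of clusters were called (25.3% lower and 30.9% higher). The median change of the 60 genes was -1.76 in WT and -1.57 in TonEBP +/-.

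Genes at background moved as well. Of the 23 genes above background on no array, 22 were called lower as deposited in WT and 21 in TonEBP +/-, with medians of -1.46 and -1.43 log2. These show how far the signal of an unmeasured gene shifted between the tissues, -0.62 and -0.68 beyond the median of all clusters. Changes between tissues are therefore given relative to the median change of all clusters in the same genotype, and for a gene with no array above background in 1 tissue as a bound on the deposited scale. WT and TonEBP +/- changes come from different arrays.

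Cxcr2, Ccr2 and Ccr1, receptors of neutrophils and monocytes, were far lower in NP than in AF. Cxcr2, at 12.61 to 14.12 in AF and 7.90 to 9.64 in NP of WT, changed by -3.37 log2 relative to the median in WT and by -5.85 in TonEBP +/-. Ccr2 changed by -3.06 in WT, and in TonEBP +/-, where no NP array was above background, its change was at or below -4.76 as deposited. Ccr1 was above background on all 6 AF arrays and on no NP array. Its change was at or below -1.96 in WT and -3.06 in TonEBP +/-. Cxcr1, which was above background on 1 WT and 2 TonEBP +/- arrays of AF and on none of NP, had bounds nearer to 0, at or below -0.46 and -0.75, and Cx3cr1 was at background throughout. The groups of Cxcr2, Ccr2 and Ccr1 did not overlap between the tissues in either genotype, nor did those of 55 genes in WT, all lower, where 81.7% of clusters did not overlap (57.8% lower), and of 52 lower and 1 higher in TonEBP +/-, where 73.7% did not (53.6% lower and 20.1% higher).

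Their ligands from the chromosome 11 cluster were lower in NP too. Ccl6 changed by -2.11 relative to the median in WT and -3.79 in TonEBP +/-, and Ccl3 by -2.51 and -3.71. Ccl9 changed by -1.99 in WT, with 1 NP array above background, and by -4.25 or lower as deposited in TonEBP +/-, with none. Ccl4, an attractant of T cells and monocytes, moved less, by -1.16 and -0.85. Each of these changes passed with array medians subtracted in both genotypes, the highest adjusted p being 0.00819. The neutrophil, erythroid, B cell and endothelial marker lists were lower in NP as well, all of the 9, 4, 5 and 6 measured markers being called lower in both genotypes, also with array medians subtracted. Of all clusters, 56.1% in WT and 54.4% in TonEBP +/- were called lower as deposited, and 31.3% and 25.3% with array medians subtracted. Of the 9 macrophage markers, 8 were called lower as deposited in each genotype and 1 higher in WT. With array medians subtracted, 6 macrophage markers were lower and 1 higher in each genotype. The part of all these markers in the chemokine values was not tested.

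Cxcl12 and its receptors did not all change in the same direction between the tissues. Cxcl12 remained far above background in NP, at 11.11 to 12.14 over the 6 NP arrays. Relative to the median it changed by -1.31 in WT and by -4.85 in TonEBP +/-. With array medians subtracted, its fitted change in WT was -1.41 (limma adjusted p = 0.0291). Cxcr4 changed by -1.97 and -4.23 relative to the median. Ackr3 went the other way. It was below background on all 6 AF arrays (6.18 to 7.49) and above it on 5 of 6 NP arrays. In TonEBP +/- it was higher in NP by at least 0.50 log2 as deposited (fitted change 1.66, SE 0.425, limma adjusted p = 0.00244). In WT, where the arrays of the tissues overlapped, no bound could be given, and it was not called as deposited (limma adjusted p = 0.112) but was with array medians subtracted (0.00721). It was the only gene of the 28 above background in a group that was called higher in NP under both scalings, and that only in TonEBP +/-.

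The homeostatic ligands differed among themselves. Ccl19 fell to background in NP of WT (5.43, 5.46 and 5.86, a change of -1.13 or lower), and Cxcl13 was at background there too (5.45, 5.49 and 6.01). Ccl28, a mucosal ligand of Ccr10 and Ccr3, changed by -1.33 relative to the median in WT and -1.21 in TonEBP +/-, and Ccl20, the ligand of Ccr6, by -0.97 and -0.67. Ccr7 changed by -1.20 and -0.63, all of these passing with array medians subtracted. In TonEBP +/- the Ccl20 and Ccr7 changes did not exceed the median shift of genes above background on no array (-0.68). Ccl27a, a skin ligand of Ccr10, read 8.22, 7.89 and 7.28 in AF and 7.56, 7.72 and 7.46 in NP of WT. It was above background on more NP arrays (5 of 6) than AF arrays (1 of 6). Relative to the median it was higher by 0.62 in WT. With array medians subtracted, its fitted change in WT was 0.52, which did not pass (limma adjusted p = 0.0764). In TonEBP +/-, where no AF array was above background, no size is given. It was not called there as deposited (adjusted p = 0.508) but was with array medians subtracted (0.00708).

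Of the ligands above background on all 3 arrays of a group, 4 lost every tissue call once array medians were subtracted. Ccl25, the thymic and gut ligand of Ccr9, was called lower in NP as deposited, yet relative to the median its change was 0.14 in WT and -0.32 in TonEBP +/-. Cxcl16, the ligand of Cxcr6 (-0.20 and -0.19), and Ccl21a (-0.33 and 0.07) were also called lower as deposited in both genotypes. Cxcl3 (-0.47 and -0.11) was called as deposited in WT and not in TonEBP +/- (limma adjusted p = 0.0593). None of the 4 passed with array medians subtracted in either genotype. Nor did Ccl11, called lower as deposited in both genotypes (limma adjusted p = 0.301 in WT and 0.11 in TonEBP +/- with medians subtracted). The call was lost in 1 genotype for Ccl21b and Ccl21c (TonEBP +/-, 0.202), Cxcr3 (WT, 0.682), Ccr3 (WT, 0.889) and Ackr2 (TonEBP +/-, 0.467). Other genes at or near background, such as Ccl7, Ccl8, Xcl1 and Cxcl15, lost calls too. Cxcl2 spread widely in NP too (11.26, 6.91 and 8.81 in WT, 9.47, 6.41 and 9.06 in TonEBP +/-). Its change as deposited was -3.48 in WT (limma adjusted p = 0.0266, and 0.0886 with array medians subtracted) and -4.80 in TonEBP +/- (0.00458, and 0.018). Leaving out 1 array moved the WT value between -5.16 and -2.06, and its call was lost without AF array 1 (-2.06) or 3 (-3.23) or NP array 2 (-2.44) or 3 (-3.39) of WT.

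**Figure D5:**
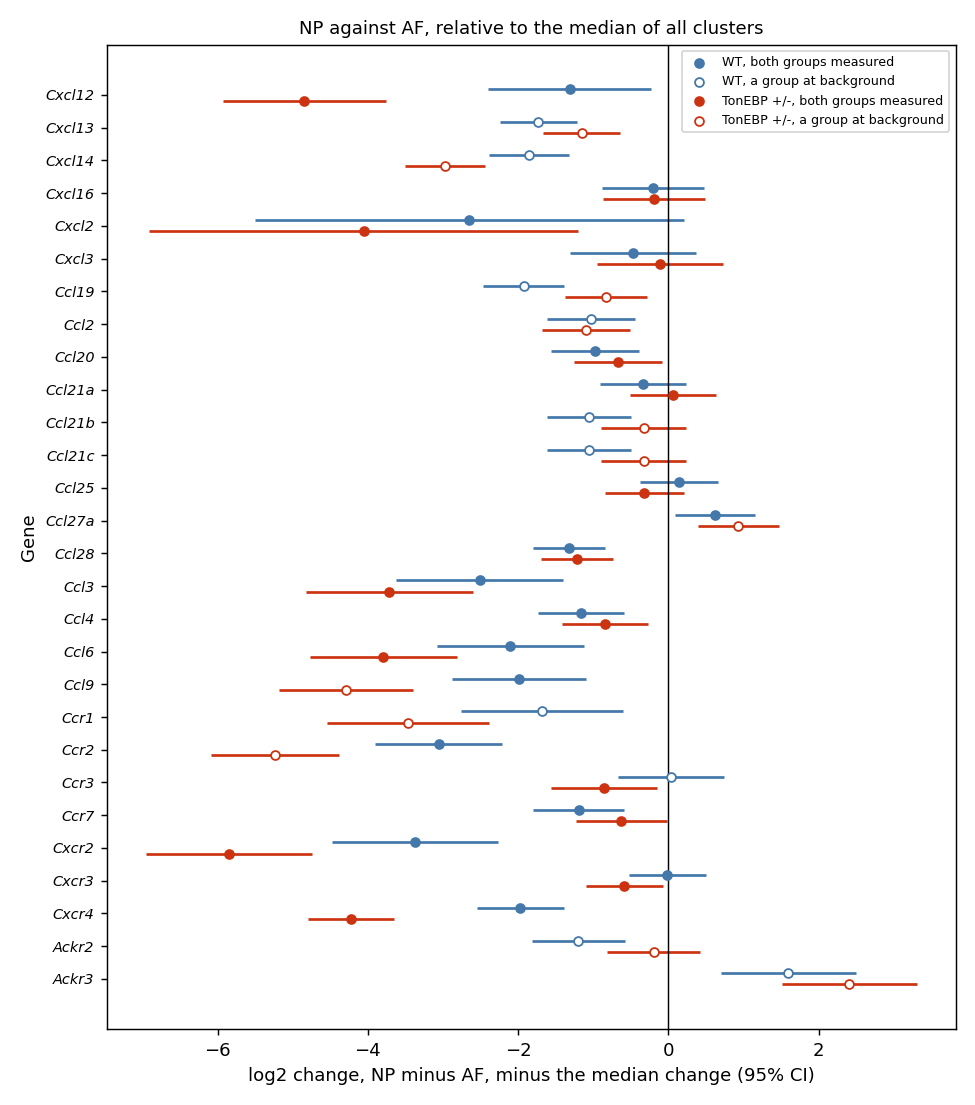
Log2 change of NP against AF minus the median change of all clusters, with its 95% interval, for the 28 genes above background on all 3 arrays of a group, in WT (blue) and TonEBP +/- (red), with open points where at least 1 tissue had no array above background. Cxcr2 (-3.37 in WT, -5.85 in TonEBP +/-) lies far to the left, Ackr3 to the right with open points, as no AF array was above background, and Cxcl16, Cxcl3, Ccl21a and Ccl25 near 0.

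Genes around the chemokine system were listed by function and counted. Of 18 measured genes of chemokine receptor signalling, 5 rose in AF of TonEBP +/- and none fell, where 2.76% of all clusters were called higher and 3.31% lower. They were Gnai2, a Gi alpha subunit (1.01 log2, limma adjusted p = 0.0207), Pik3cg, the PI3 kinase driven by G proteins (1.41, 0.0493), Rac2 (1.88, 0.0282), Elmo1, a partner of Dock2 in Rac activation (1.30, 0.0172), and the kinase Fgr (1.70, 0.0249). The median over the list was 0.96, against -0.04 over all clusters. The change in NP was called lower than in AF for 4 of the 18, where 0.766% of all clusters were. The interaction was -3.64 for Rac2 (limma adjusted p = 0.0167) and -3.00 for Dock2 (0.0408). Pik3cg (0.031) and Elmo1 (0.0415) were above background on no NP array of TonEBP +/-, so no size is given, and Elmo1 was not called with array medians subtracted (0.0513). None of the 18 was called between genotypes in NP.

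Proteases that trim or inactivate chemokines moved in AF as well. Of 11 measured, 5 rose and 1 fell, where 2.76% of all clusters were called higher and 3.31% lower. Mmp2 rose by 1.46 log2 (limma adjusted p = 0.0236), Mmp14 from background by at least 1.60 (0.0162), Adam10, which sheds Cxcl16 and Cx3cl1, by 1.02 (0.0396), the collagen-degrading cathepsin Ctsk by 3.62 (0.0235) and Ctsc, which activates neutrophil serine proteases, by 1.75 (0.0445). Cpm, a carboxypeptidase that removes the last residue of Cxcl12, fell by 1.77 (adjusted p = 0.0138), from 11.41, 10.67 and 11.43 to 8.71, 9.28 and 10.20, and was higher in NP by 6.10 relative to the median in WT. Dpp4, the main protease that inactivates Cxcl12, was above background on no array.

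Of 18 measured cytokine inputs to chemokine genes, the TNF receptor Tnfrsf1a was called higher in AF (1.13 log2, limma adjusted p = 0.0376), and Myd88, the adaptor of interleukin 1 and Toll-like receptors, narrowly missed (1.21, 0.0501). Il1b was far above background in AF and did not differ beyond its spread (15.31, 12.96 and 14.49 in WT, 14.96, 13.15 and 14.19 in TonEBP +/-), while Il1a, Il6 and Relb were above background on no array. Of 7 measured chemokine genes under other symbols, Cklf rose in AF (1.01, adjusted p = 0.0421). The platelet chemokines Ppbp and Pf4 differed by 1.33 (0.218) and 0.94 (0.16). Mif, a cytokine that also binds Cxcr2 and Cxcr4, was higher in NP by 4.64 relative to the median in WT and 4.94 in TonEBP +/-, at 12.73 to 13.37 over the NP arrays against 8.60 to 9.56 in AF. In NP none of the genes of these 4 lists was called between genotypes.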

How the data were processed

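Each probe set of an array has a deposited log2 signal, which the authors computed in Affymetrix Expression Console by RMA, per the submitters' processing notes (versions and settings are not given in the sources used here). In RMA the background is corrected, arrays are brought to a common distribution and the probes of a set are summarized. Which arrays were normalized together is not given in the sources used here, and the AF and NP arrays differ in median and spread, so tissue changes are set against the median change. Total RNA was labelled with biotin per the labels' protocols.

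Of the probe sets, 6640 array controls were left out and 22206 transcript clusters tested; 19572 have a symbol from the platform's gene table. In R 4.3.3, limma 3.58.1 fitted a mean for each of 4 groups to all 12 arrays (lmFit, contrasts, eBayes without trend), with Benjamini-Hochberg adjustment over all clusters and a threshold of 0.05. Intervals are 95% intervals of the moderated fit, and p-values measure only the spread between these samples. Above background means over the 95th percentile of the 23 background probe sets of the array. Where no array of a group was above it, the change is given against the higher of that level and the signal on each array (at least, at or below), with no value where this held for both groups. Depth does not apply to arrays, and their number limits the precision. The fit was also run on simulated data with independent normal noise. Such data hold no array-wide differences, so no conclusion about the calls is drawn from that run. Plots were made with matplotlib 3.10.9 under Python 3.11.15. Promoters and gene order came from RefSeq on GRCm38.p6.

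Genes were named by a rule: values for genes above background on all 3 arrays of a group or called, the others by ranges and counts, and of the pathway lists the called genes and the largest changes. The genes and lists described were chosen with earlier results of these data known. Genes that did not pass were also named for their place in a ligand and receptor pair, some after their values were seen. Alternatives were array medians subtracted, quantile normalization, the compared arrays alone, an intensity trend, array weights, clusters above background only, other background levels, the mean of several probe sets of a gene, and leaving out each array.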

Additional observations from a re-analysis of the deposited data

Results flagged for a closer look

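The change with genotype differed between AF and NP by a test of that difference for Cxcl12 and Cxcr4, a ligand and its receptor. For Cxcl12 the difference of both changes was -3.44 log2 (limma adjusted p = 0.0372), and the 3 heterozygous arrays lay above the WT arrays in AF and overlapped them in NP. For Cxcr4 it was -2.17 (limma adjusted p = 0.018), and the heterozygous arrays lay above all WT arrays in AF and below all of them in NP. Both calls depended on single arrays. Of the 12 fits that left out 1 array, the call held in 4 for Cxcl12 and in 8 for Cxcr4.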

How the results depend on the processing

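Of 1497 alternative values, 1370 kept their direction and their side of the threshold, or stayed within 1.5 times of a count. The 6 genes called in AF became 10 after quantile normalization (8.93% of all clusters called), 20 or 33.3% with array weights (32.4% of clusters), 0 with the AF arrays alone (0.0135%), and 2 to 16 when 1 array was left out (0.365% to 18.1%). The 2 called interactions became 8 with array weights (11.3% of clusters) and 0 to 5 when 1 array was left out (0.0991% to 5.94%). After quantile normalization the 57 genes called between tissues in WT became 34 or 56.7% (54.5% of clusters), and the 55 in TonEBP +/- became 36 or 60.0% (48.9%). With only clusters above background, 28 genes were tested, and 26 were called between tissues in each genotype (73.9% of clusters in WT and 71.1% in TonEBP +/-). In NP no gene was called between genotypes under any alternative. The 28 genes above background became 42 against the median background probe set, 19 against the highest and 31 where 2 of 3 arrays sufficed. With 1 array left out, the genotype change of Cxcl2 ran from -1.03 to 2.06 in AF and from -1.72 to 0.46 in NP. It changed sign in AF without array 2 of WT (-1.03) or array 1 of TonEBP +/- (-0.38), and in NP without array 1 of WT (0.46) or array 2 of TonEBP +/- (0.28). With array medians subtracted, the tissue changes of Ccl25 in WT (0.041) and Ccl21a in TonEBP +/- (0.01) changed sign. The causes were not tested, except that fewer genes are tested where dim clusters are left out. No paired analysis was possible because the replicate numbers are in accession order and the labels tie no AF array to an NP array of the same mouse. Signal over background limits what can be said of the 23 genes above background on no array.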

Other observations

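Cxcl2 had its lowest signal on array 2 in each of the 4 groups (9.13, 11.20, 6.91 and 6.41 log2), and its highest on array 1 in each (15.32, 15.15, 11.26 and 9.47). Il1b was lowest on array 2 in each group too (12.96, 13.15, 8.92 and 7.00). The array numbers follow the order of the samples, the labels do not say that equal numbers share a mouse, day or batch, and these genes were picked after their values were seen.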
